A study of Mus musculus with 9 samples.

Results

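The 9 genes described here encode 8 nuclear receptors that govern drug, bile acid, lipid and energy metabolism in the liver, and 1 corepressor that such receptors recruit. They are Nr1i2 (the receptor PXR), Nr1i3 (CAR), Nr1h4 (FXR), Nr1h3 (LXRα), Nr0b2 (SHP), Rxra (RXRα), Thrb (TRβ), Esrra (ERRα) and Ncor1 (NCoR1). Their rows were picked by symbol out of a table of 24411 genes, and each symbol matched 1 row. All 9 were among the 11199 genes with enough counts to be tested. Poly(A) RNA was sequenced from 9 mouse livers, 3 in each group, and the study describes the mice as 3 months of age on the C57BL/6 background. The cont. mice carried floxed Atg7 on both copies (Atg7flox/flox) and no Cre. The Atg7-KO mice added Alb-Cre, a Cre recombinase under the albumin promoter that removes Atg7, a gene needed to build autophagosomes, from hepatocytes and leaves it in the other cells of the organ. The S351A mice carried floxed Atg7, Alb-Cre and, in addition, the S351A form of p62, with alanine in place of a serine, on both copies. p62 is the autophagy receptor and KEAP1-binding protein that accumulates when autophagy fails. Floxed Atg7 was therefore shared by all 3 groups, and the deletion was shared by Atg7-KO and S351A. The titles of the libraries gave the groups, and the genotype entries of S351A replicates 2 and 3 name another p62 residue than the titles do. The 3 comparisons ask how the receptors differ when hepatocytes lack Atg7, whether they differ when p62 is also mutated, and whether the 2 mutant groups differ from each other.

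Nuclear receptors are transcription factors that bind short DNA elements, and most of them carry a pocket for a small lipid-soluble ligand. PXR and CAR sense drugs and toxicants, FXR senses bile acids, LXRα senses oxysterols and TRβ binds thyroid hormone, and each of them works as a pair with RXRα. ERRα has no known natural hormone and acts on mitochondrial genes, SHP lacks a DNA-binding domain and represses other receptors, and NCoR1 brings histone deacetylase 3 to receptors that hold no agonist.

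The libraries differed in depth and in composition. Totals ran from 1875314 to 15426566 counts in cont., from 1945469 to 3675041 in Atg7-KO and from 713835 to 792366 in S351A, so every S351A library was smaller than every other library, and depth and the p62 mutation cannot be told apart. A gene with 3 counts lay at 0.269 to 3.73 CPM, where CPM (the count scaled to a fixed library size) is on the TMM scale, which sets libraries to a common level through the bulk of their genes. Atg7 itself, the check of the labels, stood at 42.4 to 57.8 CPM in cont., 28.0 to 30.2 in Atg7-KO and 21.8 to 24.8 in S351A, and was called lower in both mutant groups (edgeR, log2 fold change -0.74 and -1.07, adjusted p = 0.00758 and 0.00319). Sqstm1, which encodes p62, was not called in any comparison. By qRT-PCR, the study reports that Sqstm1 was raised in Atg7-KO livers and that either p62 mutant reversed this. Of 8 hepatocyte markers, 7 were called lower in Atg7-KO, and their summed level was 47885 to 104252 CPM in cont., 33212 to 40072 in Atg7-KO and 31481 to 45436 in S351A, with none at 0. Of the 6 tested ductular markers all 6 were called higher in Atg7-KO, and the sum of the 8 on the list was 54.9 to 137 CPM in cont., 948 to 1335 in Atg7-KO and 826 to 1342 in S351A, with 1 marker at 0 in cont. and in S351A. The sums of the 12 macrophage markers (224 to 347, 459 to 562 and 391 to 399.8 CPM) and of the 8 stellate and matrix markers (95.7 to 200.2, 824 to 986 and 601 to 816 CPM) also did not overlap between cont. and either mutant group. Taken gene by gene, the macrophage list held 8 calls up and 1 down in Atg7-KO, and 6 up and 0 down in S351A. The stellate and matrix list held 5 up and 0 down in each mutant group. The 7 endothelial markers summed to 198 to 369, 280 to 335 and 280.1 to 302 CPM, which overlapped, and the 8 lymphocyte markers to 7.17 to 13.4, 20.5 to 28.4 and 13.6 to 31.0 CPM. These marker levels moved with the groups in which the members below were compared, and their part in the results was not tested. In whole liver, fewer hepatocytes and less RNA per hepatocyte cannot be told apart.

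Among the 9 members, 5 were called lower in Atg7-KO than in cont. (adjusted p under 0.05 and a fold change over 1.5) and 0 were called higher, against a background of 18.1% of all genes lower and 19.9% higher. The 5 were Nr1i3, Nr1h4, Nr0b2, Rxra and Thrb. The same 5 were called lower in S351A than in cont., again with 0 called higher, against a background of 13.0% lower and 15.6% higher. These comparisons share the cont. libraries. The remaining 4 members, Nr1i2, Nr1h3, Esrra and Ncor1, were called in neither. Between S351A and Atg7-KO, edgeR called 0 of the 9 in either direction (background 0% higher and 0.00893% lower), as did DESeq2, and 1 of the 9, Nr1i3, had an unadjusted p under 0.05, where 6.60% of all genes tested did.

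**Figure D1:**
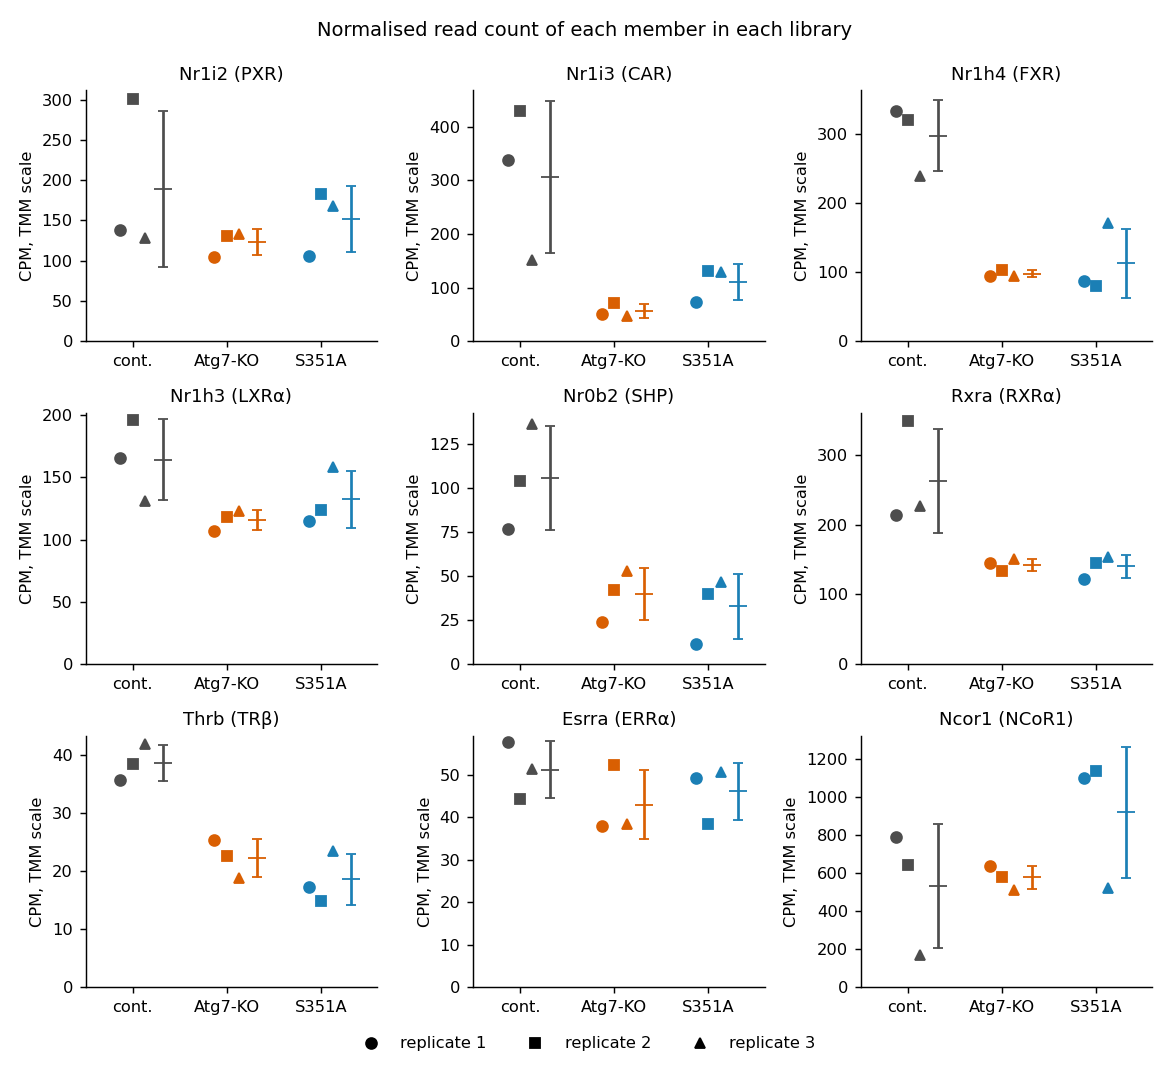
Normalised read counts (CPM on the TMM scale, linear axes from 0) of the 9 members in each library, with replicate numbers as symbols and the mean ± SD of 3 libraries at the side. For Nr1i3, Nr1h4, Nr0b2, Rxra and Thrb every cont. library lay above every Atg7-KO and S351A library. The share of all genes tested that separate the groups in this way was not counted.

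**Figure D2:**
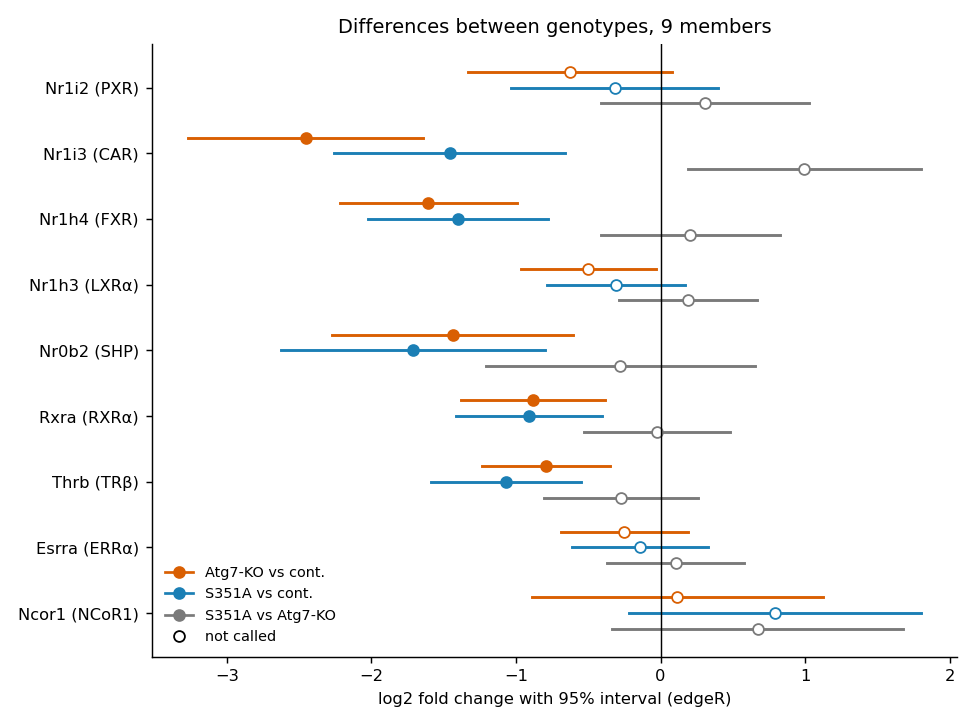
Log2 fold changes of the 9 members in the 3 comparisons, with 95% intervals from edgeR's quasi-likelihood fit. Filled points passed the call rule, and all 10 filled points lie below 0.

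The stretches just upstream of the RefSeq transcription starts of the 5 members that fell are shown with AGGTCA marked, since it is the hexamer that the DNA-binding members recognise, singly or in pairs. RefSeq (GRCm38.p6) gave 13 windows of 250 bases before a start for the 9 members, at least 1 for each. Nr1i3 has its window at chr1:171213720-171213969 on the plus strand, Nr1h4 at chr10:89506659-89506908 on the minus strand, Nr0b2 at chr4:133553126-133553375 on the plus strand, Rxra at chr2:27709042-27709291 on the plus strand, at the downstream of its starts, and Thrb at chr14:17660710-17660891 on the plus strand, cut to 182 bases before the nearest annotated exon. No printed base lies in an exon of GENCODE M21, and the Nr1h4, Rxra and Thrb windows lie inside the annotated span of the gene. Rxra and Thrb each have a further RefSeq start whose window holds no AGGTCA and is not shown. Sequences run 5′ to 3′ on the strand of the gene, and capitals mark AGGTCA or its reverse complement TGACCT.
Nr1i3: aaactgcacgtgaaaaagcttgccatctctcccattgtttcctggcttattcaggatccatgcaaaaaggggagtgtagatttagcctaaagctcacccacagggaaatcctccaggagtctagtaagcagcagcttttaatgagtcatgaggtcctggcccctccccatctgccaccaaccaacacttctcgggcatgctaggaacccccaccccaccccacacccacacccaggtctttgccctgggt
Nr1h4: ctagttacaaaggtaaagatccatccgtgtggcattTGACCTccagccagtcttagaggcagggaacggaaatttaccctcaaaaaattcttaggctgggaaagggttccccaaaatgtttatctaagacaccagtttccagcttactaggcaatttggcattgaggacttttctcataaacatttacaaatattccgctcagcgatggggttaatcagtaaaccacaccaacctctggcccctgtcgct
Nr0b2: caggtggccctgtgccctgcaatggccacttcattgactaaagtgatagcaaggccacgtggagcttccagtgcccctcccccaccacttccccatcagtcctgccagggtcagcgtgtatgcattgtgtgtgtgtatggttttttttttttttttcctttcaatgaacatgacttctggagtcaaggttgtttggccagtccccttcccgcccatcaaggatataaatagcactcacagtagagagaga
Rxra: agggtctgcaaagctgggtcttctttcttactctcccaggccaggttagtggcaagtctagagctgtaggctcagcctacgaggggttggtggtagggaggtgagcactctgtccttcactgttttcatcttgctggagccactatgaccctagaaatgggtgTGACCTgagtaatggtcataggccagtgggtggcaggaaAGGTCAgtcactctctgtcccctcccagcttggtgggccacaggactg
Thrb: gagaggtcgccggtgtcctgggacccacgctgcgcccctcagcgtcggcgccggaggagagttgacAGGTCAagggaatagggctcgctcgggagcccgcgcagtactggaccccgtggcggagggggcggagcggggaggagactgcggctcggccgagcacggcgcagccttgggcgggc
AGGTCA was searched on both strands and was found in 3 of the 13 windows, once 214 bases upstream of the Nr1h4 start, at 87 and 48 bases upstream of the Rxra start shown, and 184 bases upstream of the Thrb start shown. Of 32851 RefSeq windows of the same length, 14.0% held it. The longer form TCAAGGTCA, which contains AGGTCA and is the site that ERRα binds alone, was in 0.387% of all windows and in 0 of the 13. Paired copies, as an inverted repeat 1 base apart or direct repeats 1 to 5 bases apart, were in 0.00609% to 0.0335% of all windows and in 0 of the 13. A match is a description of the letters and says nothing of binding.

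Nr1i3 fell furthest of the members in Atg7-KO. It encodes CAR, the receptor through which phenobarbital-like compounds raise drug-metabolising enzymes, and the gene lies at chr1:171213970-171220701 on the plus strand. Its level was 338, 429 and 152 CPM in cont. replicates 1, 2 and 3, then 49.9, 71.1 and 46.2 in Atg7-KO and 72.4, 132 and 130 CPM in S351A (each list of values here and below runs in replicate order). The lowest cont. library, replicate 3, still lay above the highest mutant library, and every S351A library lay above every Atg7-KO library. Nr1i3 was 5.48-fold lower in Atg7-KO than in cont. (log2 fold change -2.45 ± 0.37 SE, adjusted p = 0.000347, edgeR) and 2.75-fold lower in S351A than in cont. (-1.46 ± 0.37, adjusted p = 0.0111). Between the mutants it was 1.99-fold higher in S351A (0.99 ± 0.37 SE, 95% interval 0.19 to 1.80), with an unadjusted p of 0.0197 in edgeR that did not pass after adjustment over all genes (adjusted p = 0.696). Without S351A replicate 1 the call against cont. was lost (log2 fold change -1.24, adjusted p = 0.0546). None of the 9 deposited values of Nr1i3 was a whole number. The gene shares exon bases with Tomm40l on the opposite strand, and the library kit does not mark strand. Tomm40l, a mitochondrial import channel gene, was also called lower, by 1.65 on the log2 scale in Atg7-KO (adjusted p = 0.000972) and by 1.20 in S351A (adjusted p = 0.0110), and how much of either change is the other gene's was not tested.

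Nr1i2 encodes PXR, the receptor for bulky drugs and steroids that shares many target genes with CAR. It lies at chr16:38248323-38294824 on the minus strand. Its level was 139, 301 and 128 CPM in cont., 104, 130.3 and 134 in Atg7-KO, and 106, 183 and 168 CPM in S351A. The groups overlapped in every comparison. The log2 fold change was -0.63 ± 0.33 in Atg7-KO (adjusted p = 0.148) and -0.32 ± 0.33 in S351A (adjusted p = 0.506) against cont., and 0.31 ± 0.33 between the mutants (adjusted p = 0.908). By their Xist and Y-linked counts, replicate 1 of each group and cont. replicate 3 were male and the other 5 libraries were female. In each group every female library had more Nr1i2 than every male library, a pattern picked out after the values were seen. With sex in the fit, Nr1i2 was called lower in Atg7-KO (log2 fold change -0.77, adjusted p = 0.0162), and over all alternatives its adjusted p in that comparison ran from 0.0162 to 0.815. Against cont., the S351A difference changed sign without cont. replicate 2, the female cont. library (0.17).

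The lists of target genes below are read beside the background of all genes, with 19.9% higher and 18.1% lower for Atg7-KO and 15.6% and 13.0% for S351A. The list of genes known as targets of CAR and PXR held 23, of which 22 were tested. In Atg7-KO 4 rose (Gstm3, Akr1b7, Cyp2a5 and the drug exporter gene Abcb1a) and 6 fell, with a median log2 fold change of -0.28 beside -0.03 over all genes tested. In S351A the same 4 and Ugt1a1 rose and the same 6 fell (median -0.45 beside -0.03), and between the mutants edgeR called 0, while DESeq2 called 2 higher in S351A and edgeR with no filter on low counts 3. Over the alternatives the list median ran from -0.45 to 0.29 in Atg7-KO and from -0.73 to 0.05 in S351A, above 0 under some scalings. With total library size 7 rose and 6 fell in Atg7-KO. Cyp2c54, a drug- and fatty-acid-oxidising P450, had 818, 722 and 698 CPM in cont., 14.6, 10.4 and 7.78 in Atg7-KO and 32.2, 47.2 and 173 CPM in S351A. It was 66.7-fold lower in Atg7-KO (adjusted p = 1.36e-05) and 8.89-fold lower in S351A (adjusted p = 0.000841), or 19.1-fold without S351A replicate 3. Its relative Cyp2c37 fell by 5.42 and 3.67 on the log2 scale (adjusted p = 0.000255 and 0.00326), the second by 5.21 without S351A replicate 3. Cyp3a11, the classical PXR target, named here after its values were seen, had 799, 1745 and 5213 CPM in cont., 299.7, 264 and 281 in Atg7-KO and 399.8, 339 and 549 CPM in S351A. It was 9.18-fold lower in Atg7-KO and 6.03-fold lower in S351A, and 4.54-fold and 2.99-fold lower without cont. replicate 3, and 6.07-fold lower in Atg7-KO with total library size, with the call kept in each case. Cyp2b10, the classical CAR target, had 0, 16.2 and 0.806 CPM in cont., 0 in each Atg7-KO library and 2.30, 0 and 0 CPM in S351A, too little to be tested. In the other direction, Gstm3, a glutathione transferase that is also a well-known target of NRF2, had 125, 82.1 and 93.6 CPM in the cont. livers and rose 22.6-fold in Atg7-KO (adjusted p = 7.13e-07) and 16.0-fold in S351A (adjusted p = 3.38e-06). Akr1b7, an aldose reductase relative, stood at 0, 1.41 and 0.0896 CPM in cont., 23.2, 55.6 and 53.1 in Atg7-KO and 6.89, 49.7 and 28.4 CPM in S351A, and was called higher in both. Its cont. values rest on few counts, so the size of the change is not given.

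Nr1h4 encodes FXR, the bile acid receptor that limits bile acid synthesis and promotes bile acid export. The gene spans chr10:89454234-89533585 on the minus strand. Its level was 333, 320.4 and 239 CPM in cont., 94.9, 103 and 93.8 in Atg7-KO, and 87.3, 79.5 and 170.3 CPM in S351A. All 6 mutant libraries lay below the lowest cont. library, and S351A replicate 3 stood above the other 5. Nr1h4 was 3.05-fold lower in Atg7-KO (log2 fold change -1.61 ± 0.28, adjusted p = 0.000853) and 2.64-fold lower in S351A (-1.40 ± 0.29, adjusted p = 0.00363). The call held in both comparisons under all 21 alternatives tried. Between the mutants the difference was 0.21 (95% interval -0.41 to 0.82, adjusted p = 0.931), and it changed sign without S351A replicate 3 (-0.23).

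Nr0b2 encodes SHP, itself a classical FXR target, which represses Cyp7a1 and other receptor targets. It lies at chr4:133553376-133556536 on the plus strand. Its level was 76.9, 104 and 136 CPM in cont., 24.1, 42.4 and 53.1 in Atg7-KO, and 11.5, 39.7 and 46.9 CPM in S351A, where the last 3 rest on 10, 32 and 38 counts. Both mutant groups lay below the lowest cont. library, and in each of them replicate 1 was the lowest. Nr0b2 was 2.71-fold lower in Atg7-KO (log2 fold change -1.44 ± 0.38, adjusted p = 0.0105) and 3.28-fold lower in S351A (-1.71 ± 0.42, adjusted p = 0.00964). Without Atg7-KO replicate 1 the first of these calls was lost (-1.16, adjusted p = 0.0601). Between the mutants the difference was -0.28 (95% interval -1.21 to 0.66, adjusted p = 0.941), and without S351A replicate 1 it was 0.13.

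Among genes that FXR raises, the balance of calls depended on the scaling. Of 11 genes that FXR raises, 9 were tested, and in Atg7-KO none rose and 4 fell, namely Abcb11, Slc27a5, Baat and Fetub (median difference -0.24, which ran from -0.43 to 0.28 over the alternatives), while with total library size 3 rose and 3 fell and without the 20 genes with most counts 3 rose and 4 fell. In S351A the same 4 fell and 1, Pltp, rose (median -0.29, between -0.49 and 0.18), where 0 rose without S351A replicate 1 or 3 or without cont. replicate 2 or 3, and 2 rose and 3 fell with total library size. Abcb11, the bile salt export pump, had 1233, 1129 and 1330 CPM in cont., 271, 276 and 252 in Atg7-KO and 319, 386 and 523 CPM in S351A, and fell 4.62-fold in Atg7-KO (adjusted p = 3.57e-05) and 3.00-fold in S351A (adjusted p = 0.000584). Slc27a5, which activates bile acids for conjugation, fell 3.70-fold and 2.80-fold (adjusted p = 6.58e-05 and 0.000638). All 4 genes known to be lowered by FXR and SHP were tested, and 3 were called lower in each mutant group (median -1.35 in Atg7-KO and -1.05 in S351A, below 0 under every alternative). In Atg7-KO 2 of the 3 calls were left with total library size, where Cyp27a1 was not called (log2 fold change -0.76, adjusted p = 0.0681). In S351A 1 of the 3 calls was left with total library size and with the 6 libraries fitted alone, and 2 without any 1 of cont. replicate 2, the Atg7-KO libraries and S351A replicates 1 and 2. These were Slc10a1, the bile acid uptake carrier (4.00-fold and 3.18-fold lower), Cyp8b1, which makes cholic acid (2.66-fold and 2.28-fold lower), and Cyp27a1 (2.43-fold and 1.87-fold lower, adjusted p = 0.00633 and 0.0465), whose S351A call was the one lost when a library was left out. Cyp7a1, the rate-limiting enzyme of bile acid synthesis, was 55.9, 68.0 and 52.2 CPM in cont., 45.0, 52.1 and 35.7 in Atg7-KO and 50.6, 57.1 and 56.8 CPM in S351A and was not called (adjusted p = 0.125 and 0.764).

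**Figure D3:**
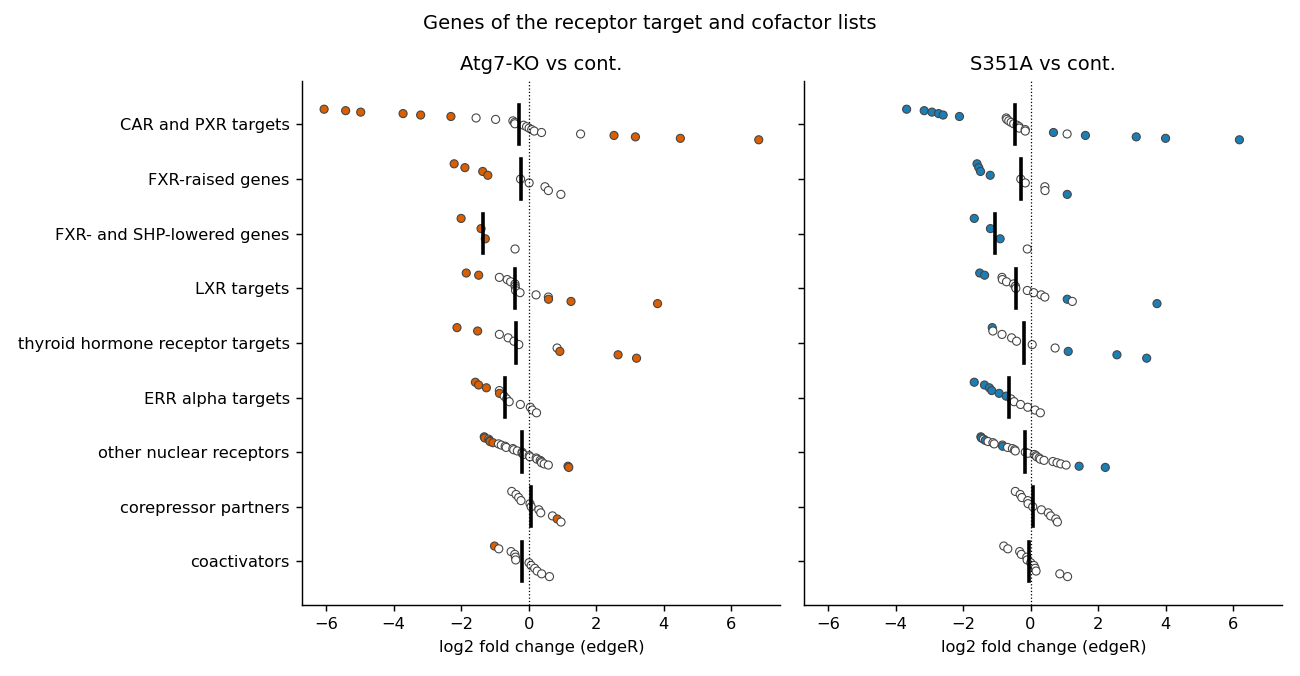
Log2 fold changes of the tested genes of each receptor target and cofactor list against cont. (left Atg7-KO, right S351A), with filled points for genes that passed the call rule and a black bar at the list median. The CAR and PXR targets span the widest range in Atg7-KO, with Cyp2c54 at -6.06 as the lowest point and Akr1b7, whose position rests on few cont. counts, as the highest, and the ERRα targets called all lie below 0 on this TMM scale.

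Rxra encodes RXRα, the common partner of the receptors above, at chr2:27676440-27762957 on the plus strand. Its level was 214, 348 and 227 CPM in cont., 145, 133 and 150.1 in Atg7-KO, and 122, 145 and 153 CPM in S351A. The mutant groups overlapped each other and lay below every cont. library, and cont. replicate 2 was the highest of the 9. Rxra was 1.84-fold lower in Atg7-KO (log2 fold change -0.88 ± 0.23, adjusted p = 0.00900) and 1.88-fold lower in S351A (-0.91 ± 0.23, adjusted p = 0.0120). The S351A call was lost without S351A replicate 1 (-0.83, adjusted p = 0.0550) and when the 6 libraries were fitted alone (-0.83, adjusted p = 0.0667). Between the mutants the difference was -0.03 (95% interval -0.53 to 0.48). Of the other retinoid X receptors, Rxrb was 42.0, 69.4 and 34.5 CPM in the cont. livers and 43.0 to 44.3 in Atg7-KO and was not called, and neither was Rxrg (adjusted p = 0.0942 in Atg7-KO and 0.417 in S351A).

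Nr1h3 encodes LXRα, which raises cholesterol efflux and fatty acid synthesis genes, at chr2:91184061-91202834 on the minus strand. Its level was 165, 197 and 131 CPM in cont., 107, 118 and 123 in Atg7-KO, and 115, 124 and 158 CPM in S351A. Every Atg7-KO library lay below every cont. library, while S351A overlapped cont. The log2 fold change in Atg7-KO was -0.50 ± 0.21 (unadjusted p = 0.0376), which did not pass after adjustment (adjusted p = 0.0842), and it was called without cont. replicate 3 (-0.65, adjusted p = 0.0299). In S351A it was -0.31 ± 0.22 (adjusted p = 0.314), and between the mutants 0.19 (95% interval -0.29 to 0.67). The signs of both differences from cont. turned when libraries were scaled by their totals (0.020 in Atg7-KO and 0.16 in S351A). Nr1h3 shares exon bases with the noncoding Gm13783 on the same strand. Nr1h2, which encodes LXRβ, was 55.6 to 82.0 CPM in the cont. livers and 83.3 to 88.3 in Atg7-KO and was not called (adjusted p = 0.352).

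Of 15 genes known as LXR targets, all were tested, and in Atg7-KO 3 (Lpl, Abcg1 and Acaca) rose and 2 (Srebf1 and Apoe) fell, counts that are near the background (median -0.39, between -0.44 and 0.14 over the alternatives). With total library size 5 rose and 2 fell, without any 1 of the Atg7-KO libraries or without S351A replicate 2 there were 1 and 2, and without cont. replicate 2 there were 2 and 4. Lpl and Pltp rose and Srebf1 and Apoe fell in S351A (median -0.44, between -0.54 and 0.08), where 5 rose with total library size, 1 rose and 4 fell without cont. replicate 2, 1 rose and 3 fell without S351A replicate 3, 1 rose and 2 fell without cont. replicate 3, and 1 rose and 1 fell without S351A replicate 1. With a replicate block 2 rose and 4 fell in S351A. Lpl, the lipoprotein-hydrolysing lipase, had 83.9, 47.5 and 71.9 CPM in cont., 938, 1047 and 885 in Atg7-KO and 1035, 1152 and 537 CPM in S351A, a rise of 14.1-fold (adjusted p = 8.61e-06) and 13.4-fold (adjusted p = 1.96e-05). Abcg1, a cholesterol exporter of macrophages and other cells, was called higher in Atg7-KO (2.39-fold, adjusted p = 0.0432) and had an adjusted p of 0.0955 in S351A. The Atg7-KO call was lost without any 1 of the Atg7-KO libraries (adjusted p = 0.0983, 0.0740 and 0.136) or without S351A replicate 2 (adjusted p = 0.0642). Lpl and Abcg1 are abundant in macrophages, whose summed markers, though not every single marker, were also higher in these livers. The part of macrophages in these changes was not tested. Srebf1, the transcription factor of fatty acid synthesis, was 225, 133 and 425 CPM in cont., 71.7, 77.5 and 69.1 in Atg7-KO and 70.1, 83.2 and 123 CPM in S351A, and fell 3.60-fold (adjusted p = 0.00179) and 2.84-fold (adjusted p = 0.00962, and 0.0503 without S351A replicate 1). Apoe fell 2.79-fold and 2.57-fold.

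Thrb encodes TRβ, the main thyroid hormone receptor of hepatocytes, at chr14:17660261-18038090 on the plus strand. Its level was low, at 35.6, 38.4 and 41.8 CPM in cont., 25.3, 22.6 and 18.8 in Atg7-KO, and 17.2, 14.9 and 23.5 CPM in S351A, the last 3 from 15, 12 and 19 counts. The cont. libraries were tight and lay above all 6 mutant libraries, and the mutant groups overlapped. Thrb was 1.73-fold lower in Atg7-KO (log2 fold change -0.79 ± 0.20, adjusted p = 0.00854) and 2.10-fold lower in S351A (-1.07 ± 0.24, adjusted p = 0.00593). Between the mutants the difference was -0.27 (95% interval -0.81 to 0.26). Thra, which encodes the other thyroid hormone receptor, is reported after its values were seen. It had 19.7, 9.86 and 9.05 CPM in cont., 21.3, 13.3 and 18.8 in Atg7-KO and 46.0, 32.3 and 18.5 CPM in S351A, and was called higher in S351A (2.71-fold, adjusted p = 0.0147) and not in Atg7-KO (adjusted p = 0.219). The call was lost without cont. replicate 3 (adjusted p = 0.0522), S351A replicate 1 (adjusted p = 0.103) or S351A replicate 2 (adjusted p = 0.0509), and Thra was also called higher in Atg7-KO with total library size.

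Of 10 genes known as thyroid hormone receptor targets, all were tested, and in Atg7-KO 3 (Hr, Serpina7 and Gpd2) rose and 2 (Dio1 and Thrsp) fell (median -0.36, between -0.48 and 0.16 over the alternatives), and with total library size 4 rose and 1 fell. The list was not split into genes that the hormone raises and genes that it lowers, so these counts give no direction of receptor activity. The same 3 rose and Dio1 fell in S351A (median -0.18, between -0.34 and 0.29), and 2 rose and 3 fell without cont. replicate 2. Between the mutants edgeR called 0 of the list, and DESeq2 called 1 higher in S351A. Dio1, the deiodinase that converts thyroxine and a standard readout of TRβ in liver, had 209.8, 216 and 142 CPM in cont., 43.9, 39.5 and 46.7 in Atg7-KO and 79.3, 88.2 and 90.1 CPM in S351A. The 3 groups did not overlap, and Dio1 fell 4.35-fold in Atg7-KO (adjusted p = 2.38e-05) and 2.20-fold in S351A (adjusted p = 0.00244), with a difference of 0.99 between the mutants that did not pass (adjusted p = 0.311). Thrsp, a lipogenic target, fell 2.85-fold in Atg7-KO (adjusted p = 0.0102, and 0.0546 without Atg7-KO replicate 1) and had an adjusted p of 0.0544 in S351A. Hr, the hairless corepressor, had 3.81, 1.06 and 0.627 CPM in the cont. livers and 9.33 to 13.2 in Atg7-KO and rose 9.19-fold (adjusted p = 0.000475), or 14.7-fold without cont. replicate 1 and 5.33-fold without cont. replicate 3. Serpina7, the thyroxine-binding globulin that circulates the hormone, was 21.6, 12.7 and 33.2 CPM in the cont. livers and 130.4 to 161 in Atg7-KO, a rise of 6.28-fold (adjusted p = 0.000448), and rose 5.90-fold in S351A (adjusted p = 0.00110), or 3.83-fold without S351A replicate 1.

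Esrra encodes ERRα, which drives mitochondrial genes together with the coactivator PGC-1α, at chr19:6910977-6921813 on the minus strand. Its level was 57.9, 44.4 and 51.5 CPM in cont., 38.1, 52.4 and 38.4 in Atg7-KO, and 49.4, 38.5 and 50.6 CPM in S351A. The 3 groups overlapped, with log2 fold changes of -0.25 ± 0.20 (adjusted p = 0.353), -0.14 ± 0.22 (adjusted p = 0.660) and 0.11 between the mutants (adjusted p = 0.963). Esrra shares exon bases with Trmt112 on the opposite strand, and Trmt112, a methyltransferase cofactor gene, was called lower in both mutant groups (log2 fold change -0.70 and -0.96). All 12 genes known as ERRα targets were tested, and 0 were called higher in either mutant group, with 4 called lower in Atg7-KO (Cox5b, Sdhb, Ndufs1 and Acadm) and these plus Cycs and Mdh2 in S351A (median -0.69 and -0.65, below 0 under every alternative). With total library size 2 were called higher and 2 lower in each comparison. In Atg7-KO 7 were called lower without cont. replicate 2, and in S351A 2 without S351A replicate 2 and 3 without cont. replicate 3 or S351A replicate 1. Cox5b, a subunit of cytochrome oxidase, was 282, 506 and 470 CPM in cont., 126, 141 and 155 in Atg7-KO and 111, 107 and 178 CPM in S351A, and fell 2.98-fold and 3.18-fold (adjusted p = 0.000865 and 0.00119). Sdhb, a subunit of succinate dehydrogenase, fell 2.79-fold and 2.58-fold. Cs and Ogdh, 2 enzymes of the tricarboxylic acid cycle on the same list, were not called.

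Ncor1, which encodes the corepressor scaffold, had the widest relative spread of the members in cont., with a coefficient of variation of 61.3%. The gene spans chr11:62316426-62458541 on the minus strand, and its exons, merged, run to 12.8 kb. Its level was 791, 639.8 and 166 CPM in cont., 638, 578 and 513 in Atg7-KO, and 1101, 1135 and 519.5 CPM in S351A. Cont. replicate 3, the most deeply sequenced library, was the lowest of the 9, S351A replicates 1 and 2 were the highest, and the groups overlapped in every comparison. The log2 fold change was 0.12 ± 0.46 in Atg7-KO (adjusted p = 0.870), 0.79 ± 0.47 in S351A (adjusted p = 0.225) and 0.67 between the mutants (95% interval -0.34 to 1.68, adjusted p = 0.855). Without cont. replicate 3 the difference of Atg7-KO from cont. was -0.32, on the other side of 0. In that library the median level relative to the mean of the 9 libraries (log2) was 0.09 for genes with under 2 kb of exons, 0.07 for 2 to 4 kb, 0.01 for 4 to 8 kb and -0.04 for over 8 kb, lower with each longer class. In cont. replicate 2, where Ncor1 was at 639.8 CPM, the same medians were 0.12, 0.03, -0.02 and -0.07. With an offset for exon length and GC content, added after these values were seen, Ncor1 was again not called in any comparison, at 0.07 in Atg7-KO and 0.67 in S351A against cont. The cause of the low Ncor1 level in cont. replicate 3 was not tested. Ttc19 and Pigl overlap exons of Ncor1 on the other strand, at 16.1 to 25.4 CPM and 1.91 to 8.61 CPM, and of these Pigl was called higher in Atg7-KO (2.20-fold, adjusted p = 0.0184).

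The calls among the partners of NCoR1 depended on the scaling. Of 12 corepressor partner genes 11 were tested, 1 was called higher in Atg7-KO, the histone demethylase Kdm1a (1.80-fold, adjusted p = 0.00793), and 0 in S351A, where 19.9% and 15.6% of all genes were called higher, with a list median of 0.08 (-0.02 to 0.63 over the alternatives) and 0.06 (-0.11 to 0.56). With total library size 3 were called higher in Atg7-KO and 4 in S351A, without the 20 genes with most counts 3 in each, and with a replicate block 2 in each. The call of Kdm1a in Atg7-KO was lost without Atg7-KO replicate 1 (adjusted p = 0.0519), and without cont. replicate 1 the list had 2 higher and 1 lower there and 1 higher in S351A. Hdac3, the deacetylase that NCoR1 carries, was 58.0 to 78.8 CPM in cont., 49.2 to 54.5 in Atg7-KO and 50.6 to 59.2 CPM in S351A and was not called (adjusted p = 0.124 and 0.343). Gps2, another subunit of the complex, was 99.8, 87.0 and 32.3 CPM in cont., with the same library lowest as for Ncor1, and 89.7 to 94.0 in Atg7-KO. Of 12 coactivators, all tested, 0 were called higher and 1, Ncoa2, was called lower in Atg7-KO (2.01-fold, adjusted p = 0.00776), and 0 were called in S351A (median -0.18 and -0.05, each above 0 under some scalings), while with total library size 2 were called higher in Atg7-KO and Ncoa2 was not called (adjusted p = 0.152), and without cont. replicate 3 the number called lower was 2. In S351A 1 was called higher with total library size, with DESeq2, with a replicate block or without cont. replicate 2, 1 lower without cont. replicate 1 or 3, and 1 higher and 2 lower without S351A replicate 3. Crebbp, an acetyltransferase that receptors recruit, was 180, 197 and 53.5 CPM in the cont. livers and 346, 376 and 191 CPM in S351A (adjusted p = 0.0620).

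The remaining nuclear receptors serve as a frame for the 9. Of 41 others, 27 were tested, and in Atg7-KO 2 (Pparg and Rarg) rose and 5 (Nr1h5, Nr1d1, Nr1d2, Ppara and Nr6a1) fell (median -0.19, between -0.36 and 0.35 over the alternatives). These are smaller in share than the 19.9% of all genes called higher and near the 18.1% called lower. With total library size 6 rose and 0 fell, and 2 rose and 2 fell without Atg7-KO replicate 1 or 2. In S351A 2 (Thra and Rarg) rose and 4 (Nr1d1, Nr1d2, Ppara and Nr2c1) fell (median -0.16, between -0.22 and 0.31), where 8 rose and 1 fell with total library size, 1 rose and 1 fell without S351A replicate 1, and 5 rose and 4 fell without S351A replicate 3. Pparg, the adipogenic receptor, was 15.3, 9.51 and 9.59 CPM in the cont. livers and 19.3, 32.0 and 24.3 in Atg7-KO and rose 2.28-fold there (adjusted p = 0.00448). Rarg, a retinoic acid receptor, was 10.2, 7.04 and 9.05 CPM in cont., 25.5, 17.6 and 14.6 in Atg7-KO and 50.6, 42.2 and 28.4 CPM in S351A, and rose 2.25-fold (adjusted p = 0.00660) and 4.64-fold (adjusted p = 0.000342). Nr1d1, the clock repressor REV-ERBα, fell 2.46-fold in Atg7-KO and 2.74-fold in S351A (adjusted p = 0.0112 and 0.0125), but was not called with total library size (adjusted p = 0.0902 and 0.0615), nor in Atg7-KO without Atg7-KO replicate 1 or 2 or in S351A without S351A replicate 1. Nr1h5, the relative of FXR that is a pseudogene in humans, fell 2.49-fold in Atg7-KO from a low level (6.36, 12.7 and 22.4 CPM in cont., adjusted p = 0.0278), a call lost without cont. replicate 3 (1.67-fold, adjusted p = 0.195), without any 1 of the Atg7-KO libraries and with total library size. Hnf4a, the receptor that maintains hepatocyte identity, was 453 to 714 CPM in cont., 621 to 838 in Atg7-KO and 559.5 to 766 CPM in S351A and was not called (adjusted p = 0.251 and 0.420).

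Per kilobase of merged exons, Nr1h4 had the highest level of the 9 in cont., at 129 ± 22.3 CPM per kb (SD, n = 3). It was followed by Nr0b2 (93.5 ± 26.2), Nr1i2 (74.2 ± 38.0), Nr1i3 (69.4 ± 32.1), Nr1h3 (65.3 ± 13.0), Rxra (48.1 ± 13.6) and Ncor1 (41.55 ± 25.5), all in CPM per kb. Esrra (11.7 ± 1.54 CPM per kb) and Thrb (5.22 ± 0.422 CPM per kb) were the lowest. From Nr1h4 down to Ncor1 the mean ± SD ranges of each neighbouring pair overlapped, and those of Ncor1 and Esrra and of Esrra and Thrb did not, which was not tested. In Atg7-KO Nr1i2 (48.1 ± 6.32 CPM per kb), Nr1h3 (46.1 ± 3.16), Ncor1 (45.0 ± 4.89) and Nr1h4 (42.3 ± 2.28) lay within their SDs of each other, while Nr1i3 (12.6 ± 3.04) had moved down beside Esrra (9.79 ± 1.86). In S351A Nr1i3 stood at 25.2 ± 7.62 CPM per kb and Ncor1, at 71.7 ± 27.0, was first. With the longest annotated transcript as the length, Nr1i3 came second in cont., at 103 CPM per kb, and Ncor1 was the highest in Atg7-KO, at 63.8 CPM per kb.

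**Figure D4:**
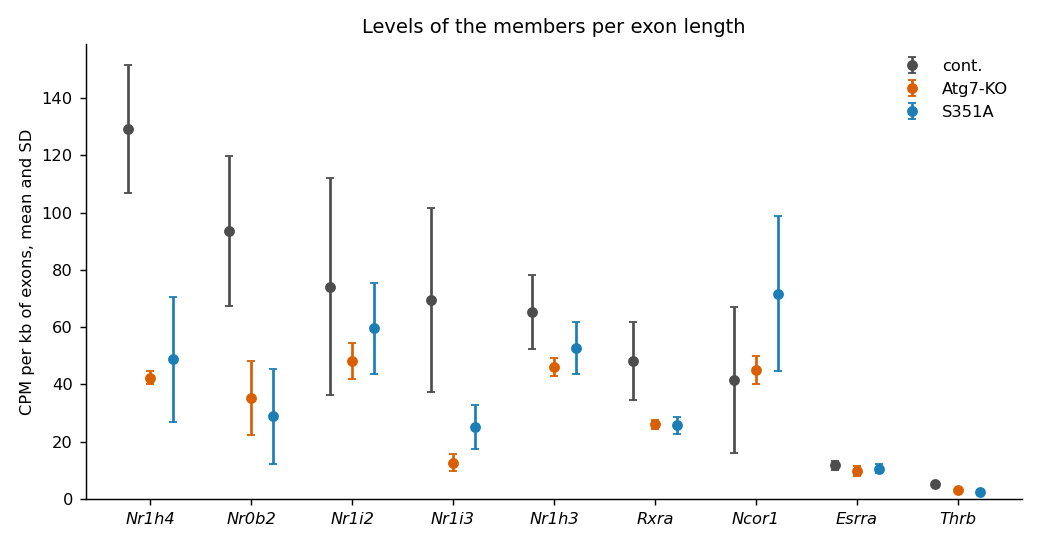
Mean level of each member per kilobase of merged exons in each group (CPM per kb on the TMM scale, bars ± SD of 3 libraries), ordered by cont. Nr1h4 and Nr0b2 lead in cont., at 129 and 93.5, and Esrra and Thrb are the lowest in all 3 groups.

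The genes whose levels followed each member most closely over the 9 libraries were found by the root mean square difference in log2 level from the cont. mean, among 8814 genes. For Nr1i3 they were Lin7a (0.24), Hpd (0.29) and Npr2 (0.30). Hpd, the tyrosine-degrading dioxygenase, had 2505, 5025 and 1888 CPM in cont., 552, 694 and 608 in Atg7-KO and 517, 1319 and 1304 CPM in S351A. For Nr1h4 they were Ido2 (0.14), Slc27a2 (0.14) and Pcyt2 (0.16), where Slc27a2 activates very long chain fatty acids. For Nr0b2 they were Fn3k (0.32), Maob (0.33) and Klf15 (0.34), for Rxra Paf1 (0.081), Mon2 (0.087) and Optn (0.135), and for Thrb Mink1 (0.13), Kdm3b (0.13) and Taz (0.15). The members that were not called had Sdc4, Pam16 and Map3k5 (Nr1i2), Dopey2, Trmt1l and Brd7 (Nr1h3), and Stx18, Mtfr1 and Tom1 (Esrra) as their nearest. For Ncor1 the nearest were 2310033P09Rik (0.094), Ankrd17 (0.11) and Nicn1 (0.14). All 3 were lowest in cont. replicate 3, at 27.0, 98.6 and 12.1 CPM. Their choice by likeness to Ncor1 over these same libraries favours this, so it is no separate evidence.

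The scaling of the libraries changed how many members were called. The 20 genes with the most counts took 19.2% to 28.9% of the counts in cont. and 12.2% to 14.4% in the mutants. Dividing by total counts, in place of TMM, shifted the median gene up by 0.54 in Atg7-KO and 0.49 in S351A, and dividing by the total without those 20 genes shifted it by 0.36 and 0.33 (log2). Over all genes, calls in Atg7-KO were 2226 higher and 2027 lower with TMM, 4284 and 801 with totals, and 3437 and 1084 without the 20 genes; in S351A they were 1748 and 1460, 3498 and 512, and 2753 and 728. With totals, Nr1i3 (-1.95) and Nr1h4 (-1.09) stayed called in Atg7-KO, and Nr1h4 (-0.92) and Nr0b2 (-1.21) in S351A. Rxra and Thrb lost their calls with totals in both comparisons, at -0.35 and -0.25 in Atg7-KO and -0.43 and -0.57 in S351A, and Nr0b2 lost it in Atg7-KO (-0.89, adjusted p = 0.0657) and Nr1i3 in S351A (-1.01, adjusted p = 0.0591).

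**Figure D5:**
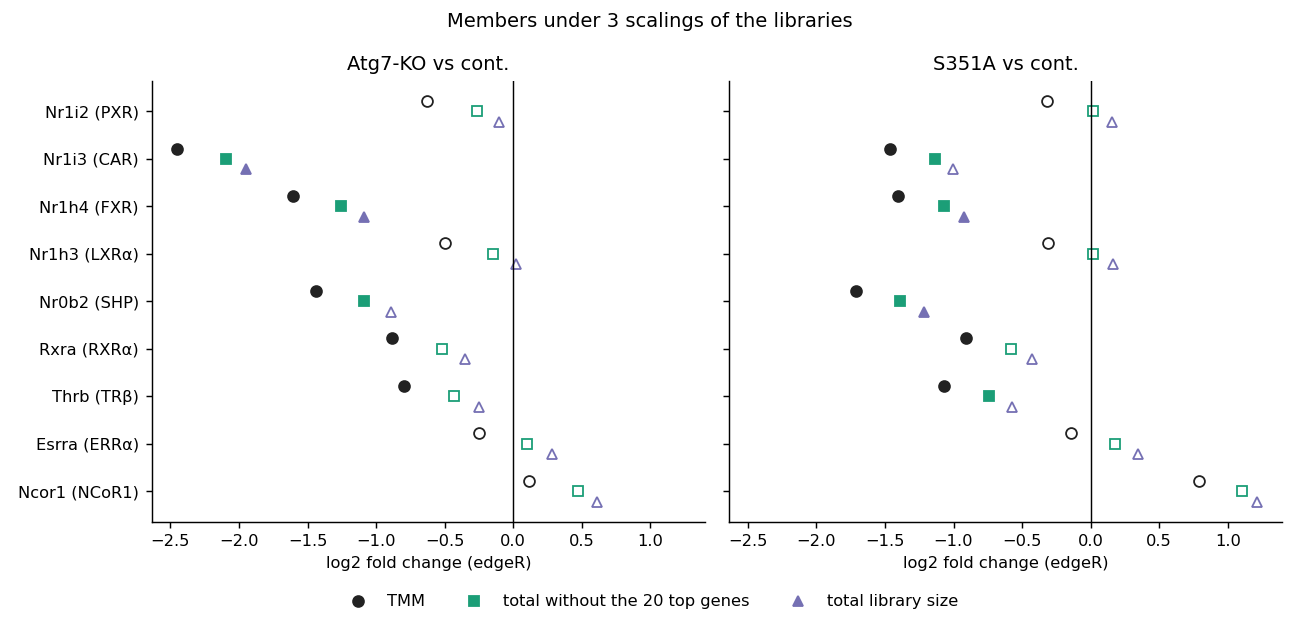
Log2 fold change of each member against cont. with libraries scaled by TMM, by the total without the 20 genes with most counts, and by the total. Filled symbols passed the call rule, and Nr1h4 is filled in all 6 positions, while Nr1h3, Nr1i2 and Esrra cross 0 in S351A and Nr1h3 and Esrra do so in Atg7-KO.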

How the data were processed

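Poly(A) RNA-seq libraries of 9 mouse livers were used, 3 in each group, which the study describes as biological replicates, so p-values measure the spread between livers. Per the submitters' processing notes the authors trimmed reads with Trim Galore, aligned them to mm10 with STAR and counted them with RSEM (versions not given in the sources used here). The authors deposited expected counts (estimated counts per gene, not normalised), of which 4.40% to 7.75% per library were not whole. RSEM splits reads between overlapping genes, and the kit does not mark strand.

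Expected counts were rounded and tested with edgeR 4.0.16 (R 4.3.3, limma 3.58.1): TMM scaling, a filter on low counts (filterByExpr, minimum count 10, minimum total 15, which kept 11199 of 24411 genes), a quasi-likelihood fit of all 9 libraries with 1 term per group, and Benjamini-Hochberg adjustment over all genes tested. A gene was called at an adjusted p under 0.05 and a fold change over 1.5. Errors of levels are SD (n = 3), and errors of log2 fold changes are SE. The script was tested on simulated data. Gene positions, exon lengths and overlaps came from GENCODE M21 (mm10), and promoters from RefSeq GRCm38.p6, which gave windows for all 9 members.

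Named genes were the 9 members, the 2 genes called higher and the 2 called lower with the largest change in Atg7-KO from each target or cofactor list (with 10 CPM or more on average in whichever group was higher), the 3 genes nearest to each member, and Atg7 and Sqstm1. Other genes are named to complete a count of calls or as relatives or well-known targets of the members. The latter were chosen after their values were seen, namely Cyp3a11, Cyp2b10, Cyp27a1, Cyp7a1, Rxrb, Rxrg, Nr1h2, Thra, Hdac3, Gps2, Crebbp, Cs, Ogdh and Hnf4a. The members and lists were chosen with earlier results of these data known.

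Replicate numbers recur in all groups. Correlations of deviations between same-numbered libraries were 0.235, 0.175 and 0.16 for cont. and S351A, all above 0.1, with no label that says what the number marks. They were 0.248, 0.0913 and -0.0415 for cont. and Atg7-KO, and 0.306, 0.0738 and 0.0919 for Atg7-KO and S351A. Alternatives were other scalings, other filters, limma-voom, DESeq2 1.42.0, fits of only the 6 libraries compared, a replicate block, sex, thinning to 713835 counts, the adjusted p alone, an offset for exon length and GC content and leaving out each library. Values of the list genes named in the text were followed through the scalings and left-out libraries after they were seen. Mice with p62 S351A and intact Atg7 are not analysed here.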

Additional observations from a re-analysis of the deposited data

How the results depend on the processing

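Over 21 alternatives, Nr1i3 in Atg7-KO, Nr1h4 in both comparisons with cont. and Nr0b2 in S351A kept their calls. The number of members called lower in Atg7-KO was 2 with total library size, 3 with the total without the 20 genes with most counts, and 4 to 6 when 1 library was left out. In S351A it was 2 with total library size and 3 to 5 when 1 library was left out, the 3 without S351A replicate 1. The replicate block gave 5 in each and changed no call of a member. No member was called higher, or called between the mutants, under any alternative, and the cause of these shifts was not tested.

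With total library size the log2 difference from cont. turned to 0.020 for Nr1h3 and 0.28 for Esrra in Atg7-KO, and to 0.15 for Nr1i2, 0.16 for Nr1h3 and 0.34 for Esrra in S351A. With the total without those 20 genes it was 0.10 for Esrra in Atg7-KO, and 0.015 for Nr1i2, 0.019 for Nr1h3 and 0.18 for Esrra in S351A, and Rxra (-0.52, adjusted p = 0.0769) and Thrb (-0.44, adjusted p = 0.120) lost their calls in Atg7-KO, and Rxra (-0.58, adjusted p = 0.0687) in S351A. Leaving out 1 library moved Ncor1 in Atg7-KO between -0.32 and 0.51, Nr1i2 in S351A between -0.55 and 0.17, and, between the mutants, Nr1h4 between -0.23 and 0.41, Nr0b2 between -0.64 and 0.13 and Rxra between -0.10 and 0.063. Thinning turned Rxra between the mutants to 0.086.

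Over all genes, calls in Atg7-KO went from 2226 higher and 2027 lower to 1361 and 1259 when thinned and 1183 and 1321 with at least 10 counts in every library. In S351A they went from 1748 and 1460 to 1103 and 966 when thinned, 940 and 1001 with that filter, 1085 and 764 with the 6 libraries alone, 1206 and 892 without S351A replicate 1, and 1284 and 887 without S351A replicate 2. Between the mutants they went from 0 and 1 to 61 and 37 with no filter, 19 and 17 with DESeq2, and 5 and 5 with the 6 libraries alone. In S351A, Nr0b2 and Thrb rest on 10 to 38 counts a library.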
